A study of Mus musculus with 4 samples.

Results

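A set of 10 genes of the cytosolic and mitochondrial heat shock chaperone system were followed through an RNA immunoprecipitation experiment for YTHDF1. They were chosen by Ensembl ID, carry the names given with that choice, and make up 10 of the 53465 gene IDs of the count table. They are the HSP70 genes Hspa8, Hspa1a and Hspa1b, their cofactors Dnajb1, Hsph1 and Hspa4, the HSP90 genes Hsp90aa1 and Hsp90ab1, and the mitochondrial chaperonin genes Hspd1 and Hspe1. Of these, 8 passed the filter on low counts (a mean over the libraries of at least 1 CPM, the count scaled to library size), beside 12920 genes in all. Hspa1a and Hspa1b did not pass it.

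The cells were Hepa 1-6, a mouse hepatocellular carcinoma line, carrying either a guide for Usp5 (sgUsp5, labelled a knockdown) or a control guide (sgcontrol, labelled wild type). Usp5 encodes a ubiquitin-specific protease. From the cells with each guide, RNA was recovered with an antibody to YTHDF1, a cytoplasmic reader of N6-methyladenosine in mRNA (RIP), and 10% of the same lysate was kept as input. The 4 groups were thus sgUsp5 RIP, sgUsp5 input, sgcontrol RIP and sgcontrol input, with 1 library each. The labels do not say whether the guide was expressed in a clone or a pool, and no control precipitate was analysed here, so recovery with the antibody and with the beads cannot be told apart. The count table gives no gene names. Usp5 itself, by which the knockdown label could be checked, the markers of liver cells and the wider lists of cochaperones were therefore not analysed here.

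Heat shock proteins bind unfolded or unstable proteins and help them to fold, to be held or to be degraded. In the cytosol, HSP70 takes up a client with the help of a J-domain protein, releases it when a nucleotide exchange factor acts, and can pass it on to HSP90. In the mitochondrial matrix, the chaperonin HSP60 encloses its client under a lid of HSP10. Heat shock factor 1 raises transcription of many of these genes in stressed cells by binding inverted repeats of GAA, the heat shock element.

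The libraries held between 29898171 reads (sgUsp5 RIP) and 33941019 reads (sgcontrol RIP). The 10 genes together took up 1.07% of reads in the sgUsp5 RIP library (95% Wilson interval 1.07 to 1.08) and 1.54% in the sgUsp5 input (1.54 to 1.55). In sgcontrol cells their share was 1.21% in the RIP library (1.21 to 1.22) and 1.65% in the input (1.65 to 1.65). Most of the lower share came from Hspa8 (0.281% in the RIP and 0.541% in the input of sgUsp5 cells, 0.336% and 0.588% in sgcontrol cells) and Hsp90aa1 (0.147% and 0.295%, 0.139% and 0.297%). Not all genes followed the sum: Dnajb1 had a higher share in the RIP with either guide, and Hsp90ab1 had 0.545% in the RIP and 0.537% in the input of sgcontrol cells. These intervals, and all others below except those called widened, cover counting error only. Reads were amplified by PCR without molecular identifiers and are not independent molecules.

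The stress-inducible HSP70 genes Hspa1a (chr17:34969359-34972156) and Hspa1b (chr17:34956429-34959238) lie close together on chromosome 17 and encode near-identical proteins (positions in GRCm38.p6, the assembly called mm10). Hspa1a had 0 reads in the sgUsp5 RIP, the sgcontrol RIP and the sgcontrol input and 21 reads in the sgUsp5 input. Hspa1b had 0 reads in the same 3 libraries and 1 read in the sgUsp5 input. The 21 reads correspond to 0.685 normalised CPM (exact Poisson interval of the count 13.0 to 32.1). Against the 3 counts that a count of 0 allows per library, this was 6.53-fold higher in the sgUsp5 input than in the sgcontrol input. The fold takes the 21 reads as they stand and leaves out their own interval, so it is not a lower bound. The reads of both genes summed, 22, gave 6.84-fold in the same way. Reads in a single library and none in the others were not particular to Hspa1a. Of the 53465 gene IDs, 31435 had no read in any library. At least 21 reads in the sgUsp5 input and 0 in the other libraries were found for 273 gene IDs. The same pattern was found for 245 in the sgUsp5 RIP, 168 in the sgcontrol RIP and 326 in the sgcontrol input. The value of Hspa1a is therefore not read as a difference between the guides. How reads that match both copies were counted is not given in the sources used here, so the levels of this pair are uncertain.

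The promoter windows of RefSeq (GRCm38.p6, 250 bases before to 50 after each transcript start) hold 7 of the 10 genes, with 10 starts. The windows of Hspa1a and Hspa1b are shown because they show how alike these copies are, and that of Hspe1 because it is shared with Hspd1. The windows of Hspa1a and Hspa1b were identical at 296 of 300 bases. The differences, with the base of Hspa1a first and positions counted from 1 at the 5′ end of the window, were C44T, T47C, T249G and C276T. A heat shock element was searched as GAANNTTC or TTCNNGAA, each of which reads the same on both strands, and the motifs may overlap. Capitals mark the matches in the stretches before the start, written 5′ to 3′ along the gene.
Hspa1a, chr17:34972157-34972406, minus strand: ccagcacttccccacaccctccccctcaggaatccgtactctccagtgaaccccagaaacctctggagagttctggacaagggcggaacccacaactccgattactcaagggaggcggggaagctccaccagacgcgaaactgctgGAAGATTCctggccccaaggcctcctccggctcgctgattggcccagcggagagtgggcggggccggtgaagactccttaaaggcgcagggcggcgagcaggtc
Hspa1b, chr17:34959239-34959488, minus strand: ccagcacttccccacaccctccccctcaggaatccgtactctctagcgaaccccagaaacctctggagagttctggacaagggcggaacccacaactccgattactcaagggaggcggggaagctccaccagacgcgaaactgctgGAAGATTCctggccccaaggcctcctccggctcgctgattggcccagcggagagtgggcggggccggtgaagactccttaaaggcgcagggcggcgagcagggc
Hspe1, chr1:55088028-55088147, plus strand: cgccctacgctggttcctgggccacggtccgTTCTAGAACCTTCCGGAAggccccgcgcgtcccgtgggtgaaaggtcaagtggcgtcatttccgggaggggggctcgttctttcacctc

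Hspa1a and Hspa1b each held a single match that began 104 bases before the start. Hspe1 held 3 overlapping matches, the first of which began 89 bases before its start. The same stretch lies in the window of the inner Hspd1 start, where the first match began 144 bases upstream. The stretch printed for Hspe1 lies within the annotated span of Hspd1. The mitochondrial pair is transcribed in opposite directions from this region, and the annotated genes share 96 bases. For Hsph1, the transcript starts of both windows lie inside the annotated gene. The first start had a match that began 33 bases before it and 2 more just after it. No match was found in the windows of Dnajb1, Hspa4 and the outer Hspd1 start. Pairs with a mismatch, or outside the windows, were not searched. Hspa8, Hsp90aa1 and Hsp90ab1 had no window and were not searched. A match occurred for 5 of the 7 genes and 6 of the 10 windows, beside 17% of all 27025 genes and 15.1% of all 32851 promoter windows. The windows are not independent: Hspd1 and Hspe1 share a stretch, the Hsph1 windows overlap, and those of Hspa1a and Hspa1b are near-identical. The match is a description of letters, not of binding.

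**Figure D1:**
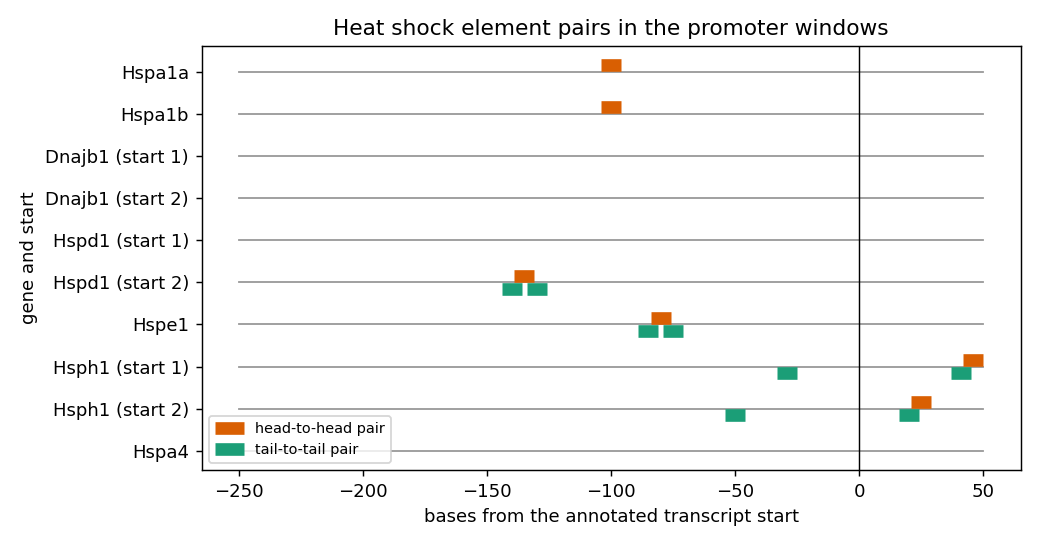
Each grey line is the promoter window of an annotated start of a chaperone gene, from 250 bases before to 50 bases after it, and boxes mark matches to the heat shock element (head-to-head pairs are GAANNTTC, tail-to-tail pairs TTCNNGAA). The Hspd1 (start 2) and Hspe1 rows show the same 3 matches read from opposite strands.

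Each library was scaled with TMM factors, and levels below are normalised CPM, which are not divided by transcript length and so are not compared between genes. The 8 measured genes had a mean log2 CPM between 5.85 (Dnajb1) and 12.28 (Hsp90ab1), and all belonged to the 5126 genes at 5 or more, called abundant below. Dnajb1 was higher in both RIP libraries than in either input. Hspa8, Hspa4, Hsph1, Hsp90aa1, Hspd1 and Hspe1 were lower in both RIP libraries than in either input, and Hsp90ab1 was lower within each line, with fractions that overlapped across the lines.

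**Figure D2:**
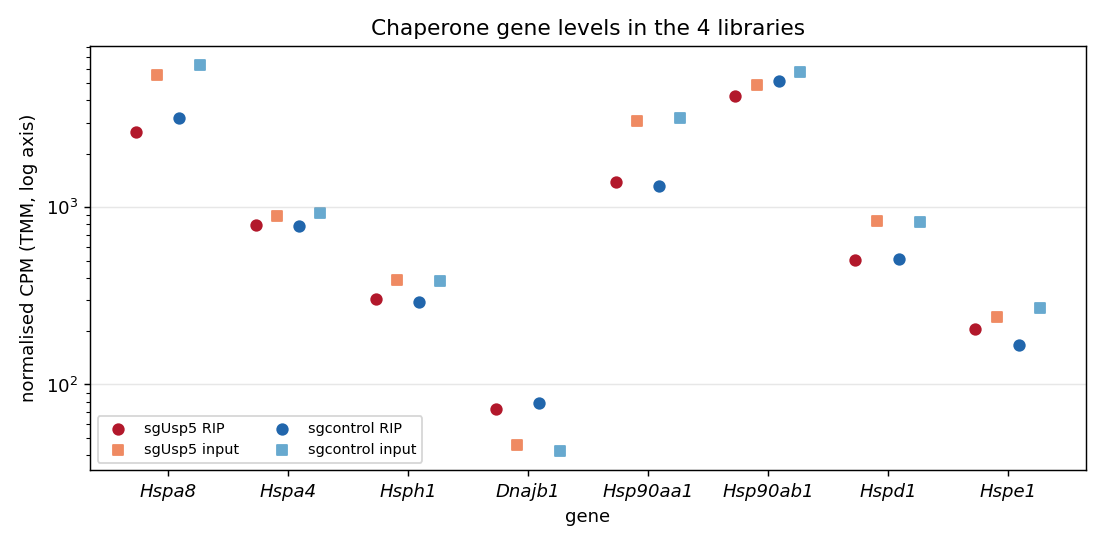
Normalised CPM (log axis) of the 8 measured chaperone genes in the sgUsp5 RIP, sgUsp5 input, sgcontrol RIP and sgcontrol input libraries, 1 point per library. For Dnajb1 the RIP circles (72.7 and 78.3 CPM) sit above the input squares (45.8 and 42.2 CPM), and for the other genes each circle sits below the square of the same line.

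Which chaperone RNAs were recovered with YTHDF1 was addressed by RIP over input, tested in the 4 libraries together. The test was edgeR's quasi-likelihood test over all 12920 genes, with the guide as a block and 1 residual degree of freedom. Hspa8, Hsp90aa1 and Hspd1 fell in the RIP and Dnajb1 rose, while Hsp90ab1, Hspe1, Hsph1 and Hspa4 did not pass an adjusted p of 0.05. Among all genes 11.3% were called lower and 10.2% higher, and among the abundant genes 23% and 18.9%. The 3 lower and 1 higher of 8 are few genes beside these shares, and are not read as particular to chaperones. The median log2 RIP over input of the 8 genes was -0.29 in sgUsp5 cells, where that of all abundant genes was -0.04. In sgcontrol cells these medians were -0.54 and -0.05. The 736 genes at a mean log2 CPM of 8 or more, a level that 6 of the 8 genes reach, had medians of -0.14 in sgUsp5 and -0.21 in sgcontrol cells. Over all 12920 genes the medians were 0.02 and 0.03 in sgUsp5 and sgcontrol cells. Within a line there is 1 library a group, so no test was made there. The size rule there asked for a difference of at least 2-fold and a 95% counting interval on 1 side of no difference. Lower by this rule were 2 chaperone genes in sgUsp5 cells (13.8% of all genes, 8.21% of the abundant ones) and 1 in sgcontrol cells (15% and 11%). No chaperone gene was higher by it, Dnajb1 included, beside 15.9% of all genes in sgUsp5 and 18.4% in sgcontrol cells (6.48% and 8.84% of the abundant ones). RIP libraries and inputs scattered between the guides by 18.4 and 57.9 times the binomial variance, measured over genes with a log2 CPM of 0 to 6. Intervals called widened below rest on counts divided by these values. The scatter includes any effect of the guide. Of the 8 genes only Dnajb1 lies in that range of log2 CPM. The others lie above it, so their widened intervals may be too narrow. For Hspa8 the widened interval of sgUsp5 over sgcontrol in the inputs was -0.25 to -0.10. The 736 genes at a mean log2 CPM of 8 or more ran there from -0.46 to 0.32 between their 5th and 95th percentiles.

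**Figure D3:**
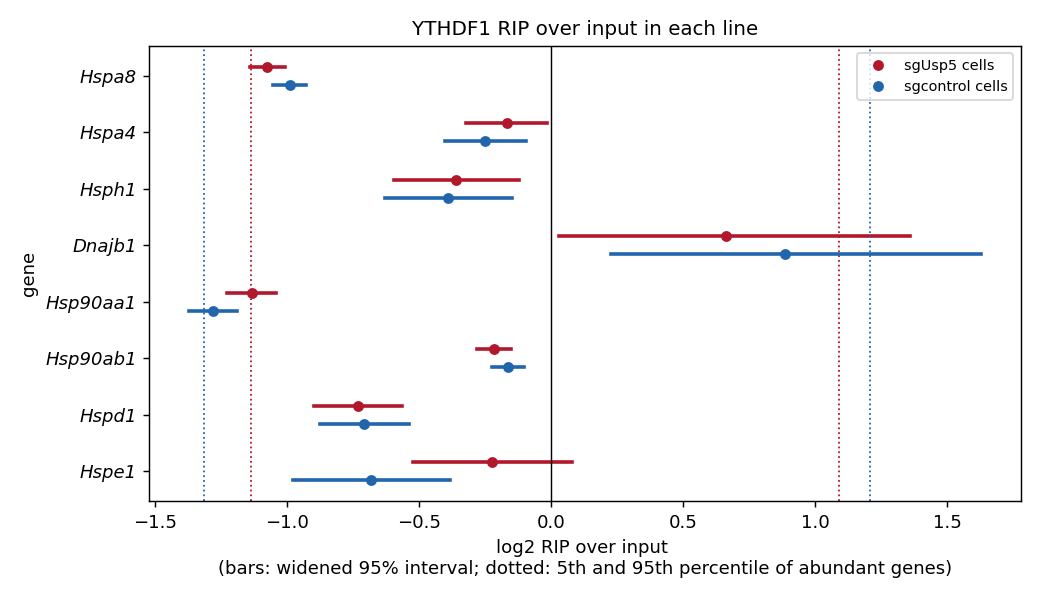
Log2 RIP over input of the 8 chaperone genes in sgUsp5 cells (upper point of each gene) and sgcontrol cells (lower point). Bars are 95% intervals widened for the scatter between libraries, and dotted lines give the range from the 5th to the 95th percentile of the 5126 abundant genes in each line. Hsp90aa1 and Hspa8 lie furthest to the left and Dnajb1 alone lies to the right of no difference.

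Hspa8 (ENSMUSG00000015656, chr9:40801276-40805202) encodes HSC70, the HSP70 that unstressed cells make constantly. It had 2660 CPM in the RIP and 5603 CPM in the input of sgUsp5 cells, from 84084 and 171819 reads. In sgcontrol cells it had 3186 CPM in the RIP and 6325 CPM in the input, from 113975 and 181021 reads. Both RIP libraries were thus below both inputs. RIP over input was -1.07 on the log2 scale in sgUsp5 cells and -0.99 in sgcontrol cells (widened intervals -1.14 to -1.01 and -1.05 to -0.93), which is 2.11-fold and 1.99-fold lower. Over both lines it fell by 1.03 on the log2 scale (edgeR's quasi-likelihood test, adjusted p = 2.44e-05). Among abundant genes its ratio stood at percentile 6.36 in sgUsp5 and 11.5 in sgcontrol cells. The Hspa8 gene is host to the small nucleolar RNA genes Snord14c, Snord14d and Snord14e, and reads shared with them cannot be told apart.

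Dnajb1 (ENSMUSG00000005483, chr8:83608175-83612653) encodes the J-domain partner HSP40, which delivers clients to HSP70 and stimulates its ATPase. It had 72.7 CPM in the RIP and 45.8 CPM in the input of sgUsp5 cells (2298 and 1404 reads), against 78.3 CPM in the RIP and 42.2 CPM in the input of sgcontrol cells (2800 and 1207 reads). It was the only one of the 8 genes that was higher in the RIP. Its log2 RIP over input was 0.67 in sgUsp5 cells (0.57 to 0.76) and 0.89 in sgcontrol cells (0.79 to 0.99), or 1.59-fold and 1.86-fold. The widened intervals were 0.03 to 1.36 and 0.23 to 1.63. Over both lines the fitted log2 difference was 0.78 (edgeR's quasi-likelihood test, adjusted p = 0.0259). These ratios stood at percentiles 84.2 and 88.4 of the abundant genes, so genes with larger ratios were common.

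The J-domain partner and its HSP70 can be set against each other inside each library, where scaling plays no part and transcript length cancels between libraries. Dnajb1 had 2.73 reads per 100 reads of Hspa8 in the RIP and 0.817 in the input of sgUsp5 cells. In sgcontrol cells it had 2.46 in the RIP and 0.667 in the input. The ratio was 3.34-fold higher in the RIP than in the input in sgUsp5 cells (95% counting interval 3.13 to 3.58) and 3.68-fold higher in sgcontrol cells (3.44 to 3.94). The proportion of these RNAs thus differed between RIP and input with either guide. It rests on the same reads as the RIP over input of each gene and is no further result. How often other pairs of genes differ as much was not tested.

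Hspa4 (chr11:53259814-53300479) and Hsph1 (chr5:149616843-149636498) encode HSP110 proteins, which act as nucleotide exchange factors of HSP70. Hspa4 had 789.7 CPM in the RIP and 887.4 CPM in the input of sgUsp5 cells, and 784.0 CPM in the RIP and 932.6 CPM in the input of sgcontrol cells. Its log2 RIP over input was -0.17 in sgUsp5 (-0.19 to -0.14) and -0.25 in sgcontrol cells (-0.27 to -0.23), and the test over both lines gave an adjusted p of 0.205 (edgeR's quasi-likelihood test). Hsph1 had 303.2 CPM in the RIP and 389.3 CPM in the input of sgUsp5 cells, and 292.5 CPM in the RIP and 383.7 CPM in the input of sgcontrol cells. The RIP libraries were below the inputs for both exchange factors, by less than for Hspa8. For Hsph1 the log2 ratios were -0.36 (-0.40 to -0.32) and -0.39 (-0.43 to -0.35), with an adjusted p of 0.0593 in the same edgeR test. The sizes depended on the scaling. With library totals, Hspa4 was at -0.04 in sgUsp5 and -0.07 in sgcontrol cells, and Hsph1 at -0.23 and -0.21. Hspa4 had 29.7 reads per 100 reads of Hspa8 in the RIP and 15.8 in the input of sgUsp5 cells, and 24.6 in the RIP and 14.7 in the input of sgcontrol cells. This proportion was 1.87-fold (1.84 to 1.91) and 1.67-fold (1.64 to 1.70) higher in the RIP, in sgUsp5 and sgcontrol cells in turn.

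The HSP90 genes encode cytosolic paralogs with much the same clients, of which Hsp90aa1 is the more stress-inducible and Hsp90ab1 the more constantly made. Hsp90aa1 (ENSMUSG00000021270, chr12:110691036-110696395) had 1393 CPM in the RIP and 3059 CPM in the input of sgUsp5 cells, and 1315 CPM in the RIP and 3194 CPM in the input of sgcontrol cells. Hsp90ab1 (ENSMUSG00000023944, chr17:45567778-45573261) had 4219 CPM in the RIP and 4904 CPM in the input of sgUsp5 cells, and 5170 CPM in the RIP and 5784 CPM in the input of sgcontrol cells. The RIP libraries lay far below the inputs for Hsp90aa1 and close to them for Hsp90ab1, whose sgcontrol RIP was above the sgUsp5 input.

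For Hsp90aa1 the log2 RIP over input was -1.13 in sgUsp5 (-1.15 to -1.12) and -1.28 in sgcontrol cells (-1.30 to -1.26), which is 2.20-fold and 2.43-fold lower. Over both lines it fell by 1.21 on the log2 scale (edgeR's quasi-likelihood test, adjusted p = 3.21e-05), and its ratios stood at percentiles 5.05 and 5.44 of the abundant genes. For Hsp90ab1 the ratios were -0.22 (-0.23 to -0.21) and -0.16 (-0.17 to -0.15), with an adjusted p of 0.0775 in the same edgeR test. When libraries were scaled by their totals alone, the sgcontrol value of Hsp90ab1 turned to 0.02. Hsp90aa1 had 33.0 reads per 100 reads of Hsp90ab1 in the RIP and 62.4 in the input of sgUsp5 cells, and 25.4 in the RIP and 55.2 in the input of sgcontrol cells. This proportion was lower in the RIP, at 0.529 of the input value (0.522 to 0.536) in sgUsp5 and 0.460 (0.455 to 0.467) in sgcontrol cells. In these libraries the proportion was thus lower in the RIP with either guide, whatever the scaling. How often other pairs of genes differ as much was not tested. Over the 736 genes at a mean log2 CPM of 8 or more, log2 RIP over input had a standard deviation of 0.74 in sgUsp5 cells. In sgcontrol cells it was 0.80. The gap between the paralogs is not read as particular to them.

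**Figure D4:**
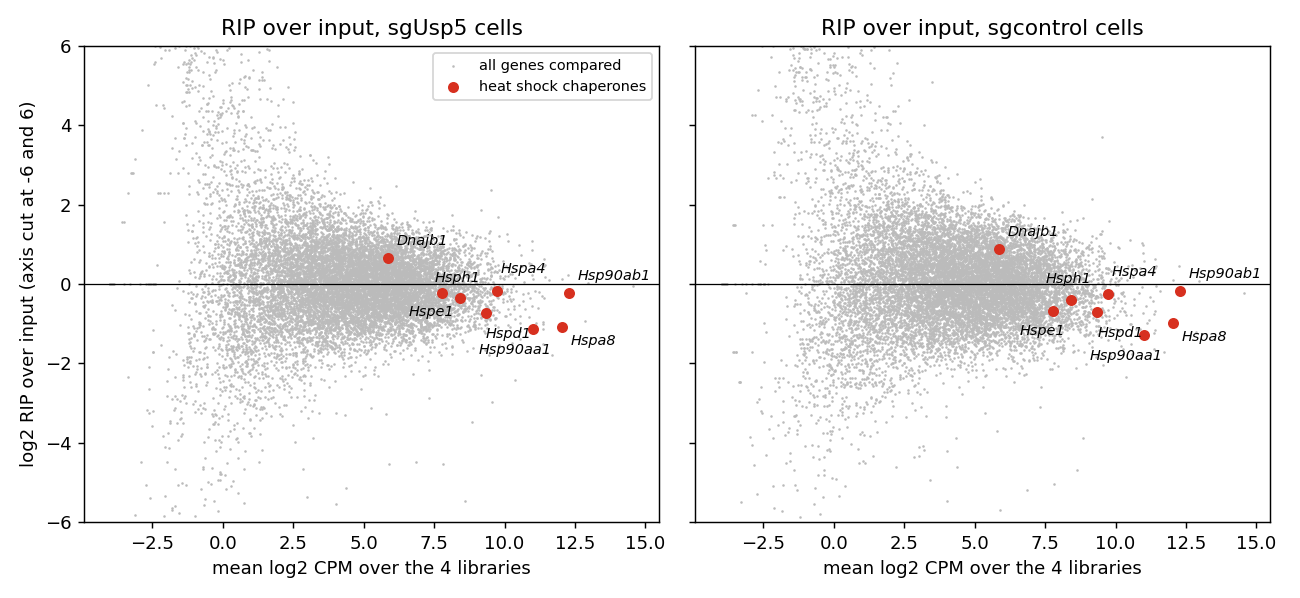
Log2 RIP over input against the mean log2 CPM over the 4 libraries, for sgUsp5 cells on the left and sgcontrol cells on the right. Grey points are the 12920 genes compared and red points the 8 chaperone genes. Hsp90aa1 and Hspa8 lie low in the cloud of genes of their level, and Hsp90ab1 lies near 0 at a similar level.

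In the mitochondrial chaperonin, Hspd1 (ENSMUSG00000025980, chr1:55077833-55088243) encodes the barrel subunit HSP60 and Hspe1 (ENSMUSG00000073676, chr1:55088148-55091317) the lid HSP10. Hspd1 had 505.7 CPM in the RIP and 840.6 CPM in the input of sgUsp5 cells, and 507.5 CPM in the RIP and 828.8 CPM in the input of sgcontrol cells. Its RIP libraries were alike and both stood below the inputs. The log2 RIP over input was -0.73 in sgUsp5 (-0.76 to -0.70) and -0.71 in sgcontrol cells (-0.74 to -0.68), and over both lines Hspd1 fell by 0.72 on the log2 scale (edgeR's quasi-likelihood test, adjusted p = 0.00169).

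Hspe1 had 205.9 CPM in the RIP and 240.6 CPM in the input of sgUsp5 cells, and 167.7 CPM in the RIP and 269.5 CPM in the input of sgcontrol cells. RIP over input differed more between the lines for it than for the other measured chaperone genes. Its log2 RIP over input was -0.23 in sgUsp5 (-0.27 to -0.18) and -0.68 in sgcontrol cells (-0.73 to -0.64). With intervals widened by the scatter between libraries, the sgUsp5 value ran from -0.52 to 0.08. Over both lines the fitted log2 difference was -0.45, with an adjusted p of 0.0655 (edgeR's quasi-likelihood test). RefSeq lists 5 Hspd1 and 7 Hspe1 pseudogenes under these symbols. How strand was handled is not given in the sources used here, so reads of the 96 shared bases may be ambiguous. Both levels are uncertain to that extent.

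Whether the Usp5 guide changed chaperone RNA levels was addressed by sgUsp5 over sgcontrol in the inputs, where there is 1 library a group and no test. In bulk RNA, fewer cells with a transcript and less RNA per cell cannot be told apart. The 8 genes lay within 0.24 of no difference on the log2 scale: 3 were above and 5 below, with a median of -0.07, beside -0.02 over the abundant genes. None reached 2-fold, beside 12.5% of all genes called higher and 12% lower, and 1.03% and 0.839% of the abundant genes. The lowest was Hsp90ab1 at -0.24 (-0.25 to -0.23) and the highest Dnajb1 at 0.12 (0.01 to 0.23). Hspa8 was at -0.17 (-0.18 to -0.17), Hspe1 at -0.16 (-0.21 to -0.12), Hspa4 at -0.07 (-0.10 to -0.05) and Hsp90aa1 at -0.06 (-0.08 to -0.05). Hspd1 and Hsph1 were both at 0.02, and their counting intervals held 0. Their widened intervals did too, as did those of Dnajb1 (-0.79 to 1.04) and Hspe1 (-0.53 to 0.20). The same held for Hspa4 (-0.26 to 0.12) and Hsp90aa1 (-0.16 to 0.04). Only the widened intervals of Hspa8 (-0.25 to -0.10) and Hsp90ab1 (-0.32 to -0.16) left out 0. Among the abundant genes the range from the 5th to the 95th percentile was -0.63 to 0.64, so each chaperone ratio was smaller than those of many other genes.

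The RIP libraries were then compared directly between the guides. The 8 genes ran from -0.29 to 0.30 on the log2 scale, 4 above and 4 below no difference, with a median of 0.00. None reached 2-fold, beside 4.58% of all genes called higher and 4.6% lower, and 0.039% and 0.078% of the abundant genes. Hspe1 was the highest at 0.30 (0.24 to 0.35), from 6507 reads in the sgUsp5 RIP and 6001 in the sgcontrol RIP. Hsp90ab1 was the lowest at -0.29 (-0.30 to -0.28), from 133372 and 184971 reads, and Hspa8 was next at -0.26 (-0.27 to -0.25). Among the abundant genes these stood at percentiles 90.5, 9.23 and 12.1, within the range of -0.38 to 0.38 between their 5th and 95th percentiles. For the 736 genes at a mean log2 CPM of 8 or more, that range was narrower, at -0.28 to 0.30. Hspa8 lay within it and Hsp90ab1 just below it, while Hspe1 is not among these genes. Hspa8 and Hsp90ab1 were lower in sgUsp5 cells in both fractions. Input and RIP of a line come from the same lysate, so this is not a repeat of the comparison.

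**Figure D5:**
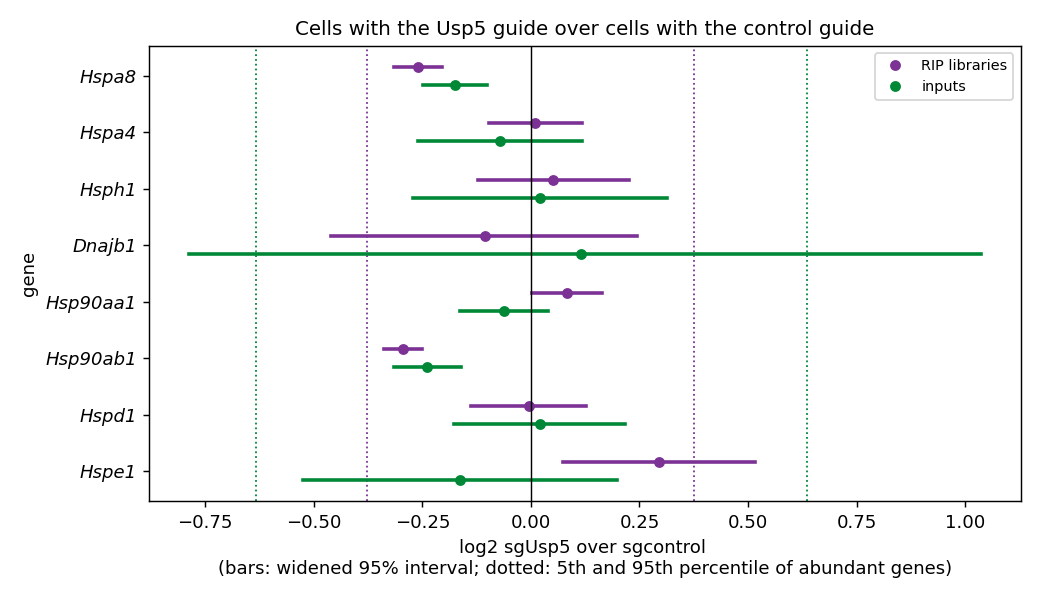
Log2 sgUsp5 over sgcontrol for the 8 chaperone genes in the RIP libraries (upper point of each gene) and the inputs (lower point). Bars are 95% intervals widened for the scatter between libraries, and dotted lines give the 5th and 95th percentiles of the 5126 abundant genes in each pair. All points lie between -0.29 and 0.30, inside the dotted lines of their own pair.

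Whether recovery with YTHDF1 differed with the Usp5 guide was asked by dividing the RIP over input of sgUsp5 cells by that of sgcontrol cells, again with no test. None of the 8 genes reached 2-fold, beside 13.2% of all genes called higher and 13.8% lower, and 1.44% and 1.15% of the abundant genes. The median was 0.00 and the range -0.23 (Dnajb1) to 0.46 (Hspe1) on the log2 scale. For Hspe1 the enrichment was 1.37-fold higher in sgUsp5 cells (95% counting interval 1.31 to 1.44; on the log2 scale with the widened interval, 0.05 to 0.87). Hspe1 stood at percentile 87.0 of the abundant genes. The proportion of Hspe1 to Hspd1 reads was 40.7 per 100 in the RIP and 28.6 in the input of sgUsp5 cells, and 33.1 in the RIP and 32.5 in the input of sgcontrol cells. For Hsp90aa1 the ratio of enrichments was 0.15 (0.12 to 0.17), and for Dnajb1 it was -0.23 with a counting interval of -0.36 to -0.09 and a widened one of -1.13 to 0.68. The other 5 genes lay between -0.09 (Hspa8) and 0.08 (Hspa4).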

How the data were processed

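Raw read counts per Ensembl gene were deposited by the authors in 1 table for all 4 libraries. The submitters' processing notes name mm10 as the build and HISAT2 2.1.0 and featureCounts 1.6.3 as tools. Not given in the sources used here are the annotation release and how strand, multiple matches and duplicates were handled. RefSeq (49997 genes) paired 0 Ensembl IDs with names, so genes outside the chosen 10 were left unnamed, and Usp5, cell markers and cochaperone lists were not analysed here. The 10 genes, matched to RefSeq by symbol, and the settings were chosen with earlier results of these data known. All 10 were to be named in every comparison.

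Counts were scaled with TMM (edgeR 4.0.16, R 4.3.3; factors 1.06, 0.966, 1.05 and 0.929 for sgUsp5 RIP, sgUsp5 input, sgcontrol RIP and sgcontrol input). Log2 ratios had 0.5 counts added, with Clopper-Pearson intervals on the split of reads. Ratios of enrichments and of gene pairs used the reciprocal counts. The widened intervals divided counts by the scatter between the guides over binomial variance (18.4 for RIP, 57.9 for inputs). This scatter was measured at a log2 CPM between 0 and 6 and includes any effect of the guide. Every measured chaperone gene but Dnajb1 lies above that range. Fraction and guide were the terms of the quasi-likelihood test (edgeR) of RIP over input, adjusted over all genes by Benjamini-Hochberg. Any effect of the guide on enrichment counts as error there, and nothing says that the lines were independent cultures. DESeq2 1.42.0 served as an alternative. The code was tested on simulated data.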

Additional observations from a re-analysis of the deposited data

How the results depend on the processing

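The alternatives were DESeq2 size factors, upper-quartile factors, library totals, other filters, 2 counts added, widened intervals, Hspa1a and Hspa1b summed, DESeq2's test and no replicate block. TMM without the 10 genes was added for the inputs after the data were seen. Of 440 single-gene values, 436 kept their sign and none that was called turned. The exceptions were Hsp90ab1 RIP over input in sgcontrol cells (0.02 with library totals), Hspd1 between the RIP libraries (0.00 with DESeq2 and 0.01 with upper-quartile factors) and the ratio of enrichments of Hsph1 (-0.02 with library totals). Library totals shifted the median log2 RIP over input of all genes to 0.15 in sgUsp5 and 0.21 in sgcontrol cells. Hspa8 (-0.94) was then under 2-fold in sgUsp5 cells, leaving 1 lower gene, while Dnajb1 (1.07) passed it in sgcontrol cells, giving 1 higher gene. With DESeq2 and upper-quartile factors Hspa8 passed 2-fold in sgcontrol cells too (-1.02 and -1.01), giving 2 lower genes. In the test over both lines, 5 genes were lower with a mean log2 CPM of at least 5 or with DESeq2's Wald test, Hspe1 and Hsph1 being added (adjusted p 0.0249 and 0.0491 with the filter, 0.0430 and 0.0295 with DESeq2). Their adjusted p ran up to 0.219 and 0.255 with library totals. With no replicate block, 3 genes were lower and 1 higher as before, with Hspa8 at an adjusted p of 0.00472. The summed Hspa1a and Hspa1b stayed under the filter. With 10 reads in all, or 1 read, Hspa1a entered as 1 higher gene in the sgUsp5 input and as the third lower gene in RIP over input of sgUsp5 cells. No paired analysis was possible for the guides because each gave 1 lysate.

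Counts over all genes depended on low counts. In the order RIP over input in sgUsp5 cells, in sgcontrol cells, inputs and RIP libraries (higher, then lower), they were 2054, 1778, 2375, 1944, 1611, 1551, 592 and 594. Widened intervals gave 616, 815, 784, 1027, 102, 110, 74 and 76, and 10 reads in all gave 4177, 2813, 4406, 3078, 2788, 2830, 2119 and 2062. With library totals the test over both lines called 969 genes lower, beside 1466. A count of 0 allows up to 3 counts, between 0.0839 and 0.105 CPM.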
